A study of Mus musculus with 11 samples.

Results

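Immediate early genes are switched on within minutes of a stimulus, without the need for newly made protein, and the same genes are induced when tissue is taken apart into single cells. This account follows a set of 38 such genes in mouse microglia, the resident macrophages of the brain. The members were taken as a named list, and were found on the array by gene symbol through the RefSeq accession of each probe. Of the 38 genes, 37 were matched to a probe and 36 were tested among 19555 genes in all. Klf10 had no matched probe, and the only probe of Dusp5 was dropped because its spots were flagged as outliers on an array or more.

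RNA was hybridised to 11 single-colour Agilent arrays in 4 groups from C57BL/6N mice. The A_FACS group (2 arrays) held flow-sorted microglia of adult females. Sorted newborn microglia (NB_FACS, 3 arrays) came from pups of both sexes in their first days of life. Adults were killed with carbon dioxide and perfused with ice-cold salt solution, and their brains were pressed through a strainer. Pups were decapitated and their brains dissociated by pipette. Age, sex and these steps could not be told apart between the sorted groups. For both sorted groups the brains were digested with trypsin at body temperature in serum-containing medium with no inhibitor of transcription, passed over a density gradient, sorted as CD45 intermediate and CX3CR1 high cells, and lysed directly. The cultured groups were microglia from newborn mice, grown in mixed glial flasks from a few pooled brains with 20% L-929 conditioned medium. After some weeks in these flasks they were shaken off for 5.5 h and then kept for a day in serum medium. Time in vitro was thus longer than that last day. NB_Control (3 arrays) received no cytokine, and NB_Stim (3 arrays) received the human cytokines TGF-β1, CX3CL1 and IL-34, each at 100 ng/mL. Sorted and cultured cells thus differed in the way they were isolated as well as in culture, and these could not be told apart. Slide 1 carried 8 arrays, those of the adult cells and of newborn replicates 1 and 2, and slide 2 carried the 3 arrays of newborn replicate 3. Of 12 microglial marker genes, 11 were tested, and all 11 were well above background on every array of all 4 groups.

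Many members encode transcription factors. Fos and Jun family proteins pair to form the AP-1 factor, EGR and KLF proteins bind GC-rich DNA through zinc fingers, and NR4A proteins are orphan nuclear receptors. Other members switch the response off again: DUSP enzymes dephosphorylate MAP kinases, and ZFP36 proteins direct short-lived mRNAs to decay. In microglia the set is known above all because enzymatic digestion at warm temperature induces it, which makes it a concern whenever sorted cells are compared with other preparations.

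The promoters of the members with the largest differences between cultured and sorted newborn cells are shown first, because the cAMP response element (CRE) and related short motifs are the classic entry points of immediate early induction. Of the 36 tested genes, 31 had an entry in the RefSeq promoter table (build GRCm38.p6). Egr1, Egr3, Ier2, Myc and Arc are not in that table. The 250 bases before the annotated start are given 5′ to 3′ on the gene's own strand for the 5 members with the largest falls among those listed. Fosl2, which rose, and Dusp6, which was not called, are shown for contrast. Where a gene has several starts, the most upstream is shown, as for Egr2 with 5 starts. Capitals mark the full CRE (TGACGTCA) and its core (TGACG), which was searched on both strands and so also appears as its reverse complement. The full CRE contains the core.

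The stretches lie at chr4:55532476-55532725 on the minus strand for Klf4, chr2:127335909-127336158 on the plus strand for Dusp2, chr7:45526269-45526518 on the minus strand for Ppp1r15a, chr10:67535249-67535498 on the plus strand for Egr2, chr17:26508473-26508722 on the minus strand for Dusp1, chr5:32136222-32136471 on the plus strand for Fosl2 and chr10:99262981-99263230 on the plus strand for Dusp6.
Klf4: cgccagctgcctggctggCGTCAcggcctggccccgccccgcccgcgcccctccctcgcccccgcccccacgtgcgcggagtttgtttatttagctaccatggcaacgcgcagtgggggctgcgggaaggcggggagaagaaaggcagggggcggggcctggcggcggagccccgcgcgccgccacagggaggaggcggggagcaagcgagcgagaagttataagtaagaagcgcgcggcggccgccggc
Dusp2: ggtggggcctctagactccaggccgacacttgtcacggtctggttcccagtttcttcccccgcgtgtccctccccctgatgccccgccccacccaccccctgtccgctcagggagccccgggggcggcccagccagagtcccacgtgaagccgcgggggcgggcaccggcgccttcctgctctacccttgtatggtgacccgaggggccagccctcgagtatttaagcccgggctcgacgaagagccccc
Ppp1r15a: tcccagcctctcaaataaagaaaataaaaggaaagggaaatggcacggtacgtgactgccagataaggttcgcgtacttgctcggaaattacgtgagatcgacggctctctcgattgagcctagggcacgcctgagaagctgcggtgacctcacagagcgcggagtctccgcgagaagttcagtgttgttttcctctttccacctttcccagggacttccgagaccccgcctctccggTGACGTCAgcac
Egr2: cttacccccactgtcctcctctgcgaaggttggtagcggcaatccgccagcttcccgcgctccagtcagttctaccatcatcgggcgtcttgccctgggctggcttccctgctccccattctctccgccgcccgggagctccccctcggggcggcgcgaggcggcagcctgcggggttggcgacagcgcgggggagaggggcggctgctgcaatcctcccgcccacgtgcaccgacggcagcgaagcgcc
Dusp1: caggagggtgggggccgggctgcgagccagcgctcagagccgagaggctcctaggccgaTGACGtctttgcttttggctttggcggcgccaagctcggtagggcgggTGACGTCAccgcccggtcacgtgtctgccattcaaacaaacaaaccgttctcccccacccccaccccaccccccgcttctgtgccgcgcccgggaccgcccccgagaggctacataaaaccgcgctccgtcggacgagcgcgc
Fosl2: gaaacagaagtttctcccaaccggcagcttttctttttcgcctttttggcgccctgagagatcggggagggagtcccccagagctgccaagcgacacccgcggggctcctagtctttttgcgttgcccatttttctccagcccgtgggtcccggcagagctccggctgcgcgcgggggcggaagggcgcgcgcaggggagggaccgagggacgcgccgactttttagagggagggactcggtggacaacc
Dusp6: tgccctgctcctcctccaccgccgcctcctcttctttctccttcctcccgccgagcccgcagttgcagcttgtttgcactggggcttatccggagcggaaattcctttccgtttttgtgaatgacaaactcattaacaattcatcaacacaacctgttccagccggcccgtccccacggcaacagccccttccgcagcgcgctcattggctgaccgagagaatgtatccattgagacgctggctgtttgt

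Motifs were counted in the same window of 250 bases before the start, without the bases after it. The full CRE occurred in the windows of 3 of the 31 members (9.68%), Btg2, Dusp1 and Ppp1r15a, and in 1.6% of the windows of all 27025 genes in the table. In Ppp1r15a it lay 12 to 5 bases before the start, and in Dusp1 143 to 136 bases before it. The core was found in 15 of the 31 (48.4%) against 17.8% of all genes, with 4 copies each in Nr4a1, Nr4a2 and Nr4a3. The AP-1 site TGACTCA was in 0 of the 31 and in 4.43% of all genes. The CArG box, which the serum response factor binds, was in 1 member, Zfp36 (3.23% against 1.41%), and the letters TATAAA were in 6 (19.4% against 13%). All motifs were searched on both strands. These counts describe letters in a short window and say nothing of binding.

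In newborn microglia, nearly the whole set was lower in cultured than in sorted cells. Of the 36 members, 32 fell and 2 rose in NB_Control against NB_FACS, where 13.9% of all 19555 genes were called lower and 15.8% higher. The median log2 difference was -2.35 over the members and 0.09 over all genes. The values of the groups did not overlap for 35 of the 36, against 44.2% of all genes, and all 36 differences had the same sign on both slides. Fosl2 and Sgk1 rose, and Dusp6 (log2 difference -0.80, 95% confidence interval -1.43 to -0.17, adjusted p 0.0589) and Zfp36l1 (-0.64, -1.61 to 0.34, adjusted p 0.325) were not called. With the replicate number as a block, Dusp6 was called as well (adjusted p 0.00285). All adjusted p-values come from limma (moderated test, two-sided, over all genes), and calls were made at 0.05. Levels are quantile normalised log2 intensities, and a ± stands for the SD within a group. These are bulk samples, in which fewer cells of a type and less RNA per cell cannot be told apart.

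With cytokines the picture against sorted cells was much the same. In NB_Stim 31 members fell and 2 rose against NB_FACS, where 15.1% of all genes were lower and 16% higher, with a median log2 difference of -2.16. Dusp6 (-0.07, -0.70 to 0.56), Zfp36l1 (-0.42, -1.40 to 0.56) and Plk3 (0.49, 0.06 to 0.92, adjusted p 0.0812) were not called. Both comparisons share the NB_FACS arrays.

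The direct comparison of the cultured groups called 4 members. Sgk1, Plk3 and Rhob rose with the cytokines and Dusp1 fell, where 1.4% of all genes were called higher and 2% lower. The median difference was -0.01 over the members and -0.000761 over all genes. At an unadjusted p under 0.05, 10 members passed, and 15.2% of all genes. The labels do not state that replicate numbers pair the newborn samples, and replicate 3 was the slide 2 array of each newborn group. With the replicate number as a block 9 members were called, 5 higher and 4 lower. The 5 added were Junb (0.70, adjusted p 0.0441) and Dusp6 (0.73, adjusted p 0.0247), which were higher, and Fos (-1.20, adjusted p 0.0385), Jun (-0.70, adjusted p 0.0394) and Ier3 (-0.57, adjusted p 0.0442), which were lower. The slide as a block also gave 9 calls, with the same 5 members added. Scaling each array to its 75th percentile in place of quantile normalisation gave 3 higher and 3 lower. When the closely similar cultured replicates 1 and 2 were averaged, 2 members (Sgk1 and Plk3) were called.

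Adult sorted microglia had higher levels of most members than sorted newborn microglia. Of the 36, 18 were called higher and 3 lower, where 9.75% of all genes were called higher and 12.9% lower. The sign was positive for 33 members, the median log2 difference was 1.07 against -0.01 over all genes, and the groups did not overlap for 32 members, against 51.2% of all genes. The size of the count rests on few arrays. It was 10 (9 higher, 1 lower) without A_FACS replicate 1, and 16 (13 higher, 3 lower) with 75th percentile scaling. Both adult arrays were on slide 1. With the replicate block, Ier2, Ier3, Atf3 and Zfp36l1 were called higher as well (adjusted p 0.00797, 0.00841, 0.0303 and 0.00886), and Csrnp1 was not (adjusted p 0.0525).

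Against the cultured groups the adult cells differed in nearly every member. In A_FACS 34 members were higher and 1 lower than in NB_Control, where 17.7% of all genes were higher and 23.2% lower, and 33 were higher and 1 lower than in NB_Stim, where 17.5% were higher and 22.8% lower. The lower ones were Fosl2 against NB_Control (-1.09, adjusted p 0.035) and Sgk1 against NB_Stim (-1.98, adjusted p 0.000376). That Sgk1 difference reversed to 0.49 with its brighter probe alone (adjusted p 0.0569), and the call of Fosl2 was lost in 8 of 22 alternative settings. Gadd45b was called in neither (0.49 and 0.53). Over the 4 group means, A_FACS was highest for 31 members, NB_FACS for 3 (Dusp2, Gadd45b and Arc), NB_Control for 1 (Fosl2) and NB_Stim for 1 (Sgk1). NB_Control and NB_Stim were each lowest for 17 members, and NB_FACS for 2.

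**Figure D1:**
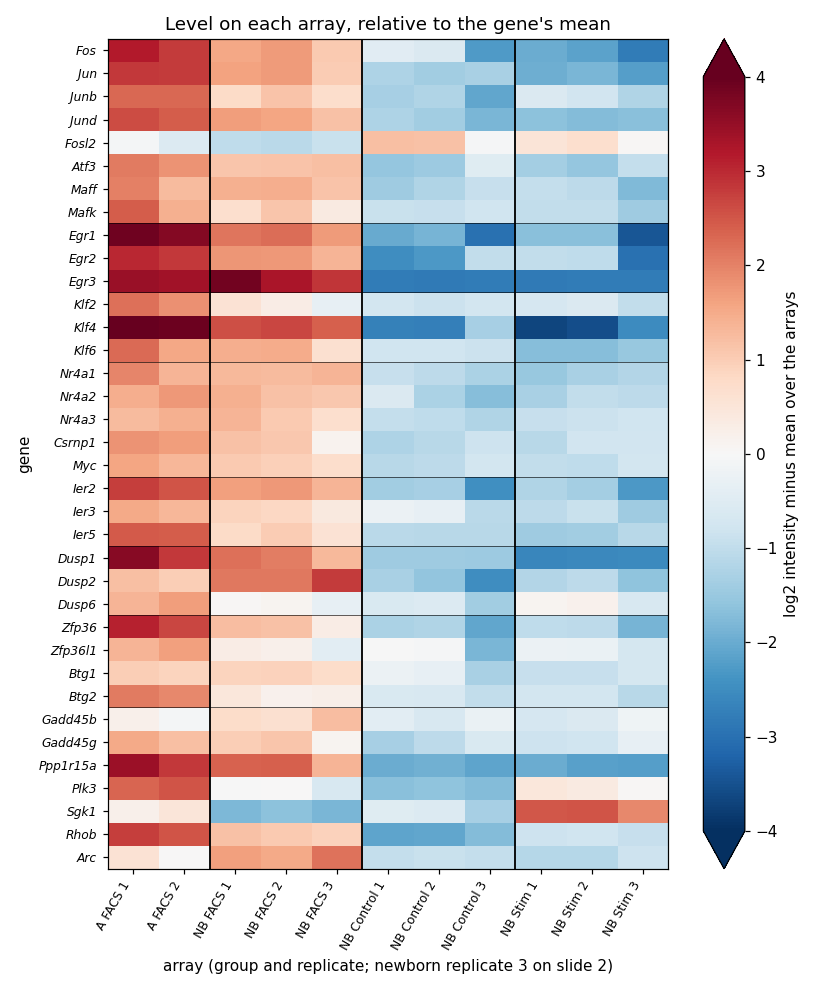
Level of the 36 tested members (rows, grouped by role) on the 11 arrays (columns), as log2 intensity minus the gene's mean over all arrays, with colours ending at 4 in either direction. The sorted arrays on the left are above the mean for most genes and the cultured arrays on the right below it. Fosl2 runs the other way, and Sgk1 is above its mean in A_FACS and NB_Stim and below it in NB_FACS and NB_Control.

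**Figure D2:**
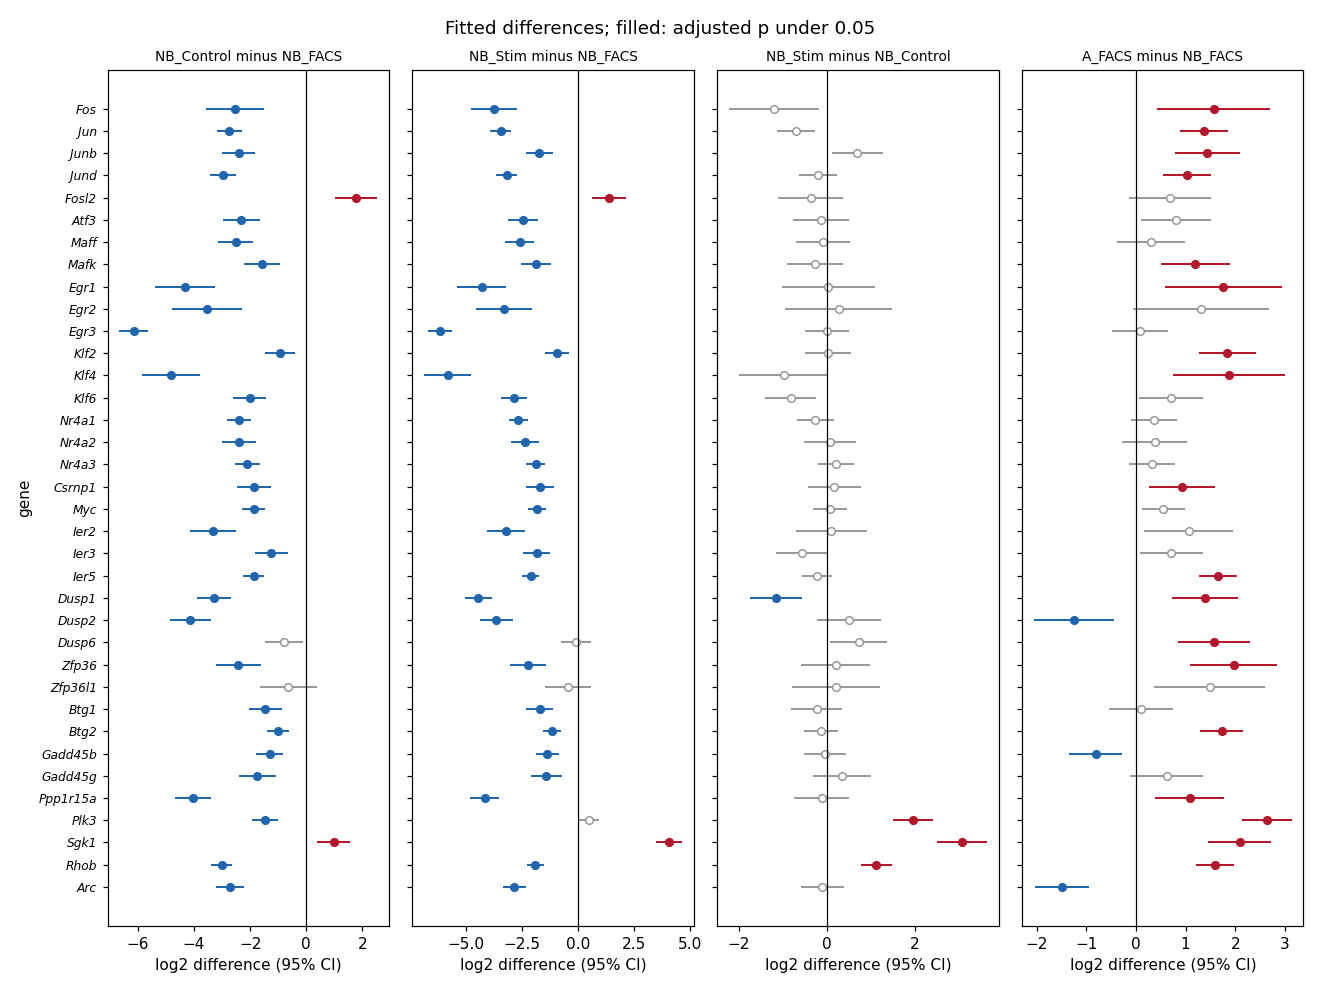
Log2 differences of the 36 members with 95% confidence intervals in 4 comparisons, filled and coloured (red higher, blue lower) where the adjusted p was under 0.05. The horizontal scales differ between panels, and the Egr3 differences of the first panels are set against arrays on which its probe was not well above background.

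The AP-1 genes and their small Maf relatives fell in culture except for Fosl2. In NB_Control 7 of the 8 were lower than in NB_FACS (median -2.46), and 5 of the 8 were called higher in A_FACS than in NB_FACS. Fos, the founding immediate early gene, was 14.73, 14.87 and 14.22 in NB_FACS and 12.72, 12.61 and 10.91 in NB_Control, 11.19, 11.04 and 10.39 in NB_Stim, and 16.35 and 15.99 in A_FACS. All sorted arrays were above all cultured ones, and the slide 2 array was the lowest of each newborn group. The difference of NB_Control from NB_FACS was -2.53 (5.77-fold lower, adjusted p 0.00192), and that of A_FACS was 1.56 (adjusted p 0.0484). The adult call of Fos was lost in 12 of 22 alternative settings, among them the omission of A_FACS replicate 1 (1.39).

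Jun, the partner of Fos, was 15.35, 15.45 and 14.77 in NB_FACS, 12.52, 12.38 and 12.46 in NB_Control, 11.79, 11.92 and 11.55 in NB_Stim, and 16.58 and 16.54 in A_FACS. The 4 groups did not overlap. Jun fell by 2.74 in NB_Control (adjusted p 6.47e-06) and was higher by 1.37 in A_FACS (adjusted p 0.0015). Jund, the least inducible of the Jun subunits, was 14.94, 14.86 and 14.45 in NB_FACS and 12.03, 11.88 and 11.45 in NB_Control, a fall of 2.96 (7.81-fold, adjusted p 3.9e-06) of which -2.94 was seen on slide 1 and -3.01 on slide 2. Junb averaged 15.03 ± 0.24 in NB_FACS, 12.63 ± 0.48 in NB_Control and 13.32 ± 0.32 in NB_Stim. Junb fell less with cytokines (-1.71, adjusted p 0.000674) than without (-2.41, adjusted p 8.53e-05), and the difference between the cultured groups is the value of 0.70 given above. Junb was the same on both adult arrays to 2 decimals (16.47).

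Fosl2, which encodes the AP-1 subunit FRA-2, rose in culture. It was 10.07, 10.003 and 10.18 in NB_FACS, 12.28, 12.24 and 11.03 in NB_Control, 11.60, 11.76 and 11.11 in NB_Stim, and 10.99 and 10.54 in A_FACS. Every cultured array was above every sorted array. The log2 difference of NB_Control from NB_FACS was 1.77 (3.4-fold higher, adjusted p 0.00229), and 2.22 on slide 1 against 0.86 on slide 2. In NB_Stim it was 1.41 (adjusted p 0.0079). Atf3, a stress-induced factor of the CREB family, fell by 2.31 in NB_Control (15.66 ± 0.04 to 13.36 ± 0.59, adjusted p 0.000175). The small Maf proteins, which lack a transactivation domain, fell as well, with differences of -2.51 for Maff (adjusted p 9.51e-05) and -1.58 for Mafk (adjusted p 0.00165). Maff averaged 11.19 ± 0.18 in NB_FACS, 8.68 ± 0.25 in NB_Control, 8.60 ± 0.45 in NB_Stim and 11.49 ± 0.54 in A_FACS. The corresponding means of Mafk were 12.18 ± 0.38, 10.60 ± 0.06, 10.33 ± 0.25 and 13.37 ± 0.71. In adult cells Mafk was higher by 1.19 (adjusted p 0.0193, and 0.69, not called, without A_FACS replicate 1), whereas Atf3 (0.80, 0.12 to 1.48) and Maff (0.30, -0.37 to 0.97) were not called.

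Of the groups of members by role, the 3 EGR genes had the lowest median in NB_Control (-4.31), although Klf4 fell further than Egr1 and Egr2. Egr1 was 14.89, 14.95 and 14.42 in NB_FACS, 10.71, 10.88 and 9.74 in NB_Control, 11.07, 11.05 and 9.31 in NB_Stim, and 16.63 and 16.39 in A_FACS. Sorted and cultured arrays were far apart, and the slide 2 array was again the lowest in each newborn group. Egr1 was 19.9-fold lower in NB_Control (-4.31, -5.35 to -3.27, adjusted p 0.000103) and 19.4-fold lower in NB_Stim (adjusted p 0.000105). Egr1 was higher by 1.76 in adult cells (adjusted p 0.036). That call was lost in 9 of 22 alternative settings, among them the omission of A_FACS replicate 1.

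Egr3, a close relative of Egr1, was 7.85, 7.24 and 6.84 in NB_FACS and 7.44 and 7.33 in A_FACS. Its probe was not well above background on any array of NB_Control or NB_Stim, so that only a bound can be given. Egr3 was at least 14.6-fold lower in NB_Control and at least 14.2-fold lower in NB_Stim than in NB_FACS. Its probe passed the filter through the sorted groups alone. Its fitted calls, which are counted among the falls above, use values not well above background and add nothing to the bound. The bound sets the mean of the brighter group against the lowest signal well above background on the dimmer group's arrays. Unlike Egr1, it did not pass the test between adult and newborn sorted cells (0.08, -0.46 to 0.62); whether the adult differences of these genes differ from each other was not tested.

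Egr2, which is also needed for myelination, was 11.86, 11.84 and 11.46 in NB_FACS and 7.60, 7.81 and 9.11 in NB_Control. It fell by 3.55 (11.7-fold, adjusted p 0.000799). In NB_Stim it was 9.12, 9.09 and 7.12, so that the slide 2 arrays went against the slide 1 arrays. The cytokine difference was 1.40 on slide 1 and -1.99 on slide 2, with a fitted value of 0.27 (-0.94 to 1.48).

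Klf4, a factor of stem cells and of myeloid differentiation, had the largest measured fall in NB_Control apart from Egr3. It was 13.08, 13.16 and 12.89 in NB_FACS, 7.77, 7.74 and 9.15 in NB_Control, 6.81, 6.93 and 7.97 in NB_Stim, and 15.46 and 14.39 in A_FACS. No pair of groups overlapped except the cultured ones. It was 28.3-fold lower in NB_Control (-4.83, adjusted p 3.95e-05) and 55.9-fold lower in NB_Stim (-5.80, adjusted p 1.32e-05), and the cultured groups differed by -0.98 (-1.97 to 0.01, adjusted p 0.336). In adult cells Klf4 was 3.68-fold higher (1.88, adjusted p 0.0226), and 1.35 higher and not called without A_FACS replicate 1. Klf2, which keeps lymphocytes and endothelium quiescent, fell little in culture (-0.95, adjusted p 0.00954) and was higher by 1.84 in adult cells (12.73 and 12.38 against 11.11, 10.83 and 10.21, adjusted p 0.000812). Klf6, a target of growth and stress signals, averaged 15.09 ± 0.47 in NB_FACS, 13.07 ± 0.04 in NB_Control, 12.25 ± 0.12 in NB_Stim and 15.79 ± 0.51 in A_FACS. Klf6 fell by 2.02 in NB_Control (adjusted p 0.000216) and by 2.84 in NB_Stim (adjusted p 2.87e-05), with an adult difference of 0.70 (0.09 to 1.32, adjusted p 0.098).

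The NR4A receptors fell in NB_Control, Nr4a1 by 2.38 (adjusted p 1.06e-05), Nr4a2 by 2.40 (adjusted p 9.15e-05) and Nr4a3 by 2.09 (adjusted p 2.19e-05). The falls of Nr4a1 and Nr4a3 are averages over probes that differed widely. Nr4a1 was 9.19, 9.14 and 9.24 in NB_FACS and 6.96, 6.84 and 6.62 in NB_Control. Nr4a2 averaged 6.55 ± 0.19 in NB_FACS, 4.15 ± 0.56 in NB_Control, 4.21 ± 0.16 in NB_Stim and 6.93 ± 0.19 in A_FACS. In culture Nr4a2 was near background, and well above it on only 2 of 3 NB_Stim arrays. Its NB_Control difference ranged from -2.70 to -0.91 over the alternative settings. Nr4a3 averaged 7.47 ± 0.35 in NB_FACS, 5.38 ± 0.13 in NB_Control, 5.59 ± 0.05 in NB_Stim and 7.79 ± 0.10 in A_FACS. Unlike most of the set, these genes did not pass the test between adult and newborn sorted cells, with differences of 0.35 (-0.09 to 0.80), 0.37 (-0.26 to 1.01) and 0.32 (-0.12 to 0.76). Nr4a1 and Nr4a3 were each measured by 3 probes, of which 1 per gene was not well above background on any NB_Control array. The other probes differed by -0.45 and -3.87 in NB_Control for Nr4a1 and by -0.97 and -1.59 for Nr4a3, and the dim probes were at least 6.12-fold and at least 2.95-fold lower. The averaged falls and their adjusted p-values above include the dim probes at their measured values. In the adult comparison the probes of each gene differed in sign (-0.24 to 0.83 and -0.28 to 1.32).

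Csrnp1, a nuclear protein induced by AXIN1, fell by 1.86 in NB_Control (adjusted p 0.000475), its 2 probes by 1.01 and 2.70. It averaged 10.04 ± 0.56 in NB_FACS, 8.18 ± 0.22 in NB_Control, 8.35 ± 0.20 in NB_Stim and 10.97 ± 0.10 in A_FACS. Its adult difference of 0.93 (adjusted p 0.044) lost its call in 15 of 22 alternative settings, among them without A_FACS replicate 1 (0.86, adjusted p 0.213) and without NB_FACS replicate 3 (0.61, adjusted p 0.062). Myc, a driver of growth and proliferation, was 10.79, 10.70 and 10.43 in NB_FACS and 8.62, 8.68 and 9.004 in NB_Control, a fall of 1.88 (adjusted p 2.62e-05). Its adult difference was 0.55 (0.15 to 0.96, adjusted p 0.0549).

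All 3 IER genes, short-lived regulators named for their immediate early response, fell in culture. Ier2 was 13.08, 13.19 and 12.83 in NB_FACS and 10.06, 10.13 and 8.99 in NB_Control, which is 9.89-fold lower (-3.31, adjusted p 9.24e-05). Ier5 was higher in adult cells by 1.66 (15.92 and 15.87 against 14.21, 14.46 and 14.04, adjusted p 0.000132), and fell by 1.88 in NB_Control (adjusted p 1.31e-05). Ier3, a regulator of cell survival, averaged 14.36 ± 0.28 in NB_FACS, 13.10 ± 0.45 in NB_Control, 12.53 ± 0.27 in NB_Stim and 15.07 ± 0.14 in A_FACS. It fell least of them (-1.25, adjusted p 0.00364), and was 0.71 higher in adult cells (0.09 to 1.33, adjusted p 0.0964).

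**Figure D3:**
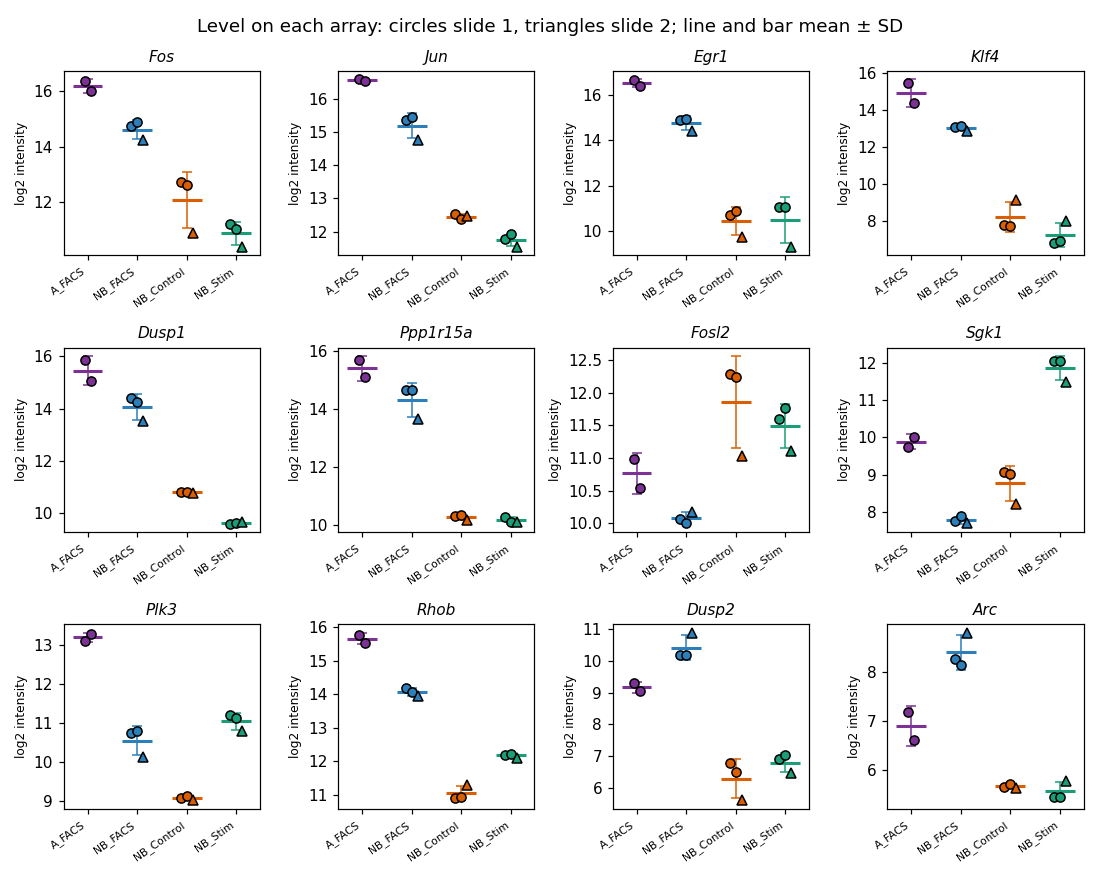
Log2 intensity of 12 members on each array by group, with circles for slide 1, triangles for slide 2, and a line and bar for the mean ± SD of the group (2 adult arrays, 3 arrays in each other group). Fos, Jun, Egr1, Klf4, Dusp1 and Ppp1r15a step down from adult to newborn sorted to cultured cells, whereas Fosl2 is higher in culture, Sgk1 is highest in NB_Stim with A_FACS next, and Dusp2 and Arc are highest in NB_FACS.

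The DUSP phosphatases, which close the MAP kinase response, did not move as a block. Dusp1, which acts on p38, JNK and ERK in the nucleus, was 14.42, 14.26 and 13.51 in NB_FACS, 10.80, 10.80 and 10.77 in NB_Control, 9.60, 9.63 and 9.67 in NB_Stim, and 15.85 and 15.05 in A_FACS. The 4 groups did not overlap, and the cultured groups were tight. Dusp1 fell by 3.27 in NB_Control (9.65-fold, adjusted p 1.42e-05) and by 4.43 in NB_Stim (21.6-fold, adjusted p 2.57e-06). The cytokine difference of -1.16 had an adjusted p of 0.0388, was -1.19 and -1.10 within slides 1 and 2, and lost its call in 10 of 22 alternative settings. Among these was the omission of any 1 cultured array, which left -1.18 to -1.14.

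Dusp2, a nuclear phosphatase of immune cells, was 10.19, 10.19 and 10.89 in NB_FACS, 6.78, 6.49 and 5.60 in NB_Control, 6.91, 7.02 and 6.46 in NB_Stim, and 9.30 and 9.05 in A_FACS. Here newborn sorted cells, not adult ones, were highest. Dusp2 was 17.5-fold lower in NB_Control (-4.13, adjusted p 1.28e-05) and 2.38-fold lower in A_FACS (-1.25, adjusted p 0.0299). The adult call was lost without NB_FACS replicate 3 (-1.02, adjusted p 0.0823) and without A_FACS replicate 1 (-1.37, adjusted p 0.107). Dusp6, a cytoplasmic phosphatase specific for ERK, was 12.40, 12.46 and 12.02 in NB_FACS, 11.73, 11.80 and 10.96 in NB_Control and 12.45, 12.51 and 11.71 in NB_Stim. Its adult values of 13.72 and 14.03 were above all newborn ones (1.58, adjusted p 0.00607).

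Of the genes that act on mRNA and on cell division, Zfp36, whose product tristetraprolin degrades Tnf mRNA, was 13.87, 13.79 and 12.93 in NB_FACS, 11.35, 11.42 and 10.55 in NB_Control, and 15.70 and 15.30 in A_FACS. Zfp36 fell by 2.42 in NB_Control (adjusted p 0.000526) and was 3.92-fold higher in adult cells (1.97, adjusted p 0.0053, and 1.78, adjusted p 0.0595, without A_FACS replicate 1). Its relative Zfp36l1 was 13.15, 13.04 and 12.43 in NB_FACS and 12.85, 12.82 and 11.04 in NB_Control, and these ranges overlapped. Btg2, an antiproliferative target of p53, was 11.06, 10.78 and 10.84 in NB_FACS, 10.02, 9.99 and 9.63 in NB_Control, and 12.70 and 12.54 in A_FACS. Btg2 fell by 1.01 (adjusted p 0.00115) and was 1.72 higher in adult cells (adjusted p 0.000208). Btg1 averaged 14.31 ± 0.09 in NB_FACS, 12.85 ± 0.60 in NB_Control, 12.63 ± 0.11 in NB_Stim and 14.41 ± 0.08 in A_FACS. Btg1 fell by 1.46 (adjusted p 0.00165), but its adult difference was 0.10 (-0.53 to 0.73).

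The remaining members, of stress signalling and the cytoskeleton, held both the largest adult rises and the cytokine rises. Ppp1r15a, which encodes GADD34 and restores translation after stress, was 14.67, 14.67 and 13.65 in NB_FACS, 10.32, 10.36 and 10.19 in NB_Control, 10.31, 10.12 and 10.10 in NB_Stim, and 15.72 and 15.11 in A_FACS. It was 16.5-fold lower in NB_Control (-4.04, adjusted p 6.08e-06) and 17.8-fold lower in NB_Stim (-4.16, adjusted p 4.99e-06). The cultured groups overlapped and differed by -0.11 (-0.72 to 0.49). The adult difference of 1.08 (adjusted p 0.0288) was 0.78 without A_FACS replicate 1 (adjusted p 0.239).

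Sgk1, a kinase of the AKT family that serum and glucocorticoids induce, had the largest cytokine difference of the set. Averaged over its 2 probes it was 7.75, 7.90 and 7.72 in NB_FACS, 9.06, 9.01 and 8.23 in NB_Control, 12.03, 12.05 and 11.48 in NB_Stim, and 9.74 and 10.02 in A_FACS. On this average NB_Stim stood above every other array. Sgk1 was 8.47-fold higher with cytokines than without (3.08, 2.54 to 3.62, adjusted p 0.000209), by 2.47 and 3.70 for the separate probes and by 3.00 and 3.25 within slides 1 and 2. Against NB_FACS the average was higher by 4.06 in NB_Stim (adjusted p 2.99e-06) and by 2.09 in A_FACS (adjusted p 0.00064). The brighter probe alone gave 2.07 and 2.56, and the dimmer one, not well above background on any NB_FACS array, was at least 37.7-fold higher in NB_Stim and at least 1.74-fold higher in A_FACS.

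The smaller rise of Sgk1 in NB_Control (0.98, adjusted p 0.0123) rests on 1 of its probes. That probe, well above background on 8 of the 11 arrays and on none of NB_FACS, was at least 2.9-fold higher, and the probe well above background on all 11 gave a log2 difference of -0.40. With the brighter probe alone the adjusted p was 0.102. The other matched probe of Sgk1 was not well above background on any array.

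Plk3, a polo-like kinase of the stress response, was 10.74, 10.80 and 10.12 in NB_FACS, 9.09, 9.14 and 9.02 in NB_Control, 11.21, 11.12 and 10.81 in NB_Stim, and 13.10 and 13.27 in A_FACS. It fell by 1.47 in NB_Control (adjusted p 0.000339) and was 3.89-fold higher with cytokines than without (1.96, adjusted p 0.000602), and its lowest NB_Stim array lay just above its highest NB_FACS array. Its adult difference was the largest of the set (2.64, 6.21-fold, adjusted p 5.8e-05).

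Rhob, an endosomal small GTPase, was 14.20, 14.08 and 13.94 in NB_FACS, 10.91, 10.95 and 11.30 in NB_Control, 12.21, 12.23 and 12.10 in NB_Stim, and 15.79 and 15.54 in A_FACS, with no overlap between any of the groups. Rhob fell by 3.02 in NB_Control (adjusted p 1.29e-06) and was higher by 1.13 with cytokines (adjusted p 0.00308), 1.29 on slide 1 and 0.80 on slide 2. That call was lost when cultured replicates 1 and 2 were averaged (1.04, adjusted p 0.0894). In adult cells Rhob was 3.02-fold higher (adjusted p 0.00019).

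Arc, known from synapses and able to form virus-like capsids, was 8.26, 8.12 and 8.79 in NB_FACS, 5.66, 5.71 and 5.64 in NB_Control, and 7.18 and 6.61 in A_FACS. It fell by 2.72 in NB_Control (adjusted p 1.3e-05) and was lower in adult cells (-1.496, adjusted p 0.00167). Gadd45b, a stress sensor that activates MAP kinase cascades, fell by 1.31 in NB_Control (adjusted p 0.0009) and was also lower in adult cells (9.98 and 9.71 against 10.51, 10.44 and 11.03, a difference of -0.82, adjusted p 0.0278). The adult call of Gadd45b was lost without NB_FACS replicate 3 (-0.63, adjusted p 0.0676) and without A_FACS replicate 1 (-0.96, adjusted p 0.0761). Gadd45g was 13.48, 13.61 and 12.62 in NB_FACS, 11.17, 11.44 and 11.88 in NB_Control, 11.67, 11.70 and 12.16 in NB_Stim, and 14.0 and 13.71 in A_FACS. Gadd45g fell by 1.74 (adjusted p 0.00128), with an adult difference of 0.62 (-0.09 to 1.33).

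The set as a whole varied between arrays of the same group. NB_FACS replicate 3 was the lowest of its group for 29 of the 36 members, NB_Control replicate 3 for 22 and NB_Stim replicate 3 for 20, and all 3 are the slide 2 arrays. A_FACS replicate 2 was lower than replicate 1 for 29 members and tied with it for Junb. NB_FACS replicate 3 was the highest of its group for 6 members, Fosl2, Atf3, Nr4a1, Dusp2, Gadd45b and Arc, and the last 3 of these are the ones that were lower in adult cells. Without that array their adult differences were -1.02, -0.63 and -1.30, of which Arc remained called. Slide 2 also had brighter scans, with a 75th percentile of the signal of 444 to 507 against 174 to 315 on slide 1, and 66.8% to 80.4% of probes were well above background per array. The part of the slide in these values was not tested apart from the block and the differences within slides.

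**Figure D4:**
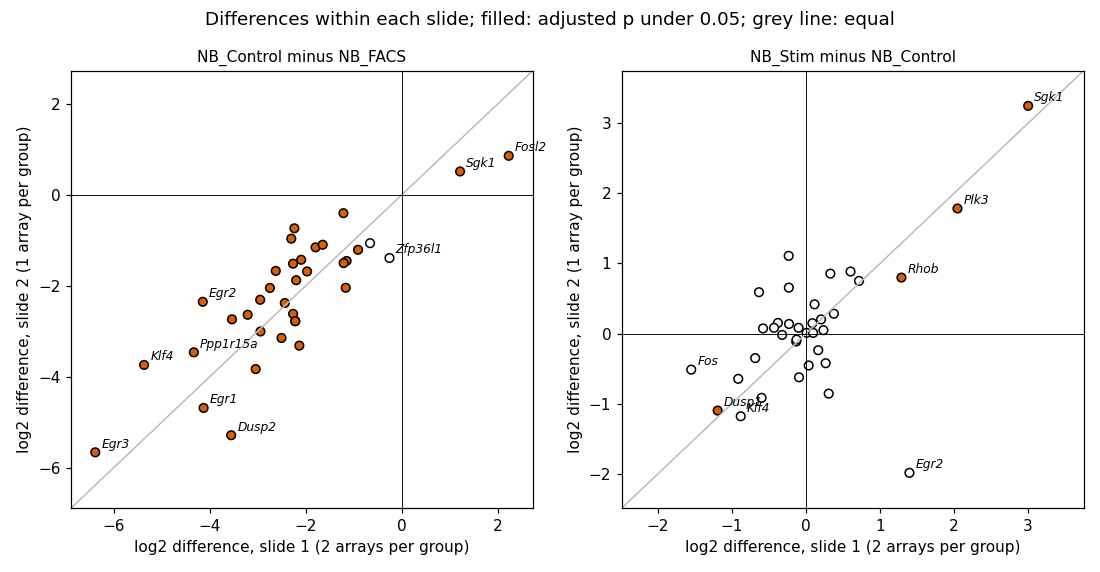
Log2 difference of each member within slide 1 (horizontal, 2 arrays per group) and within slide 2 (vertical, 1 array per group) for NB_Control minus NB_FACS and NB_Stim minus NB_Control, filled where the adjusted p over both slides was under 0.05. All 36 points of the first panel have the same sign on both slides, against 23 of 36 in the second, where Egr2 lies far from the grey line of equal values.

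Genes related to the set were followed as lists of their own. Over all genes 13.9% were called lower and 15.8% higher in NB_Control, and 12.9% lower and 9.75% higher in A_FACS, each against NB_FACS. Against NB_Control, 2% were called lower and 1.4% higher in NB_Stim. Of 16 tested AP-1 and other bZIP genes outside the set, 4 rose and 5 fell in NB_Control (median -0.42). Jdp2, a repressor of AP-1, fell by 3.35 and Atf4, which drives the amino acid response, by 1.90, while Atf5 rose by 2.46. In NB_Stim against NB_Control 2 of these 16 fell, Maf by 1.77 and Batf by 0.95. In adult cells 2 were lower, Jdp2 (-1.20) and Batf (-1.19).

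Of 22 upstream kinases and factors, 2 rose and 4 fell in NB_Control with a median of -0.07, close to that of all genes. Map2k3, an activator of p38, fell by 1.96, and Mapk8, which encodes JNK1, by 1.63. Among 24 other genes of the KLF, DUSP, GADD45 and related families, 6 rose and 9 fell (median 0.08), with Dusp8 (-3.10), Dusp16 (-2.72) and Klf11 (-2.57) lowest. In the cytokine comparison limma called 0 genes of either list, and at an unadjusted p under 0.05 3 of the 22 and 4 of the 24 passed.

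Early inflammatory transcripts went down in culture like the members. Of 11 tested, 8 fell and 1 rose in NB_Control (median -3.27). Nfkbiz, a nuclear regulator of NF-κB targets, fell by 5.13, Tnfaip3, which damps NF-κB, by 4.13, and Tnf by 4.05. Ptgs2, which encodes the prostaglandin synthase COX-2, rose by 1.82. In adult cells 1 was higher (Ccl3, 0.86) and 2 were lower (Cxcl2, -2.75 and Cxcl1, -2.57). Of 9 heat shock genes 3 fell in NB_Control and 5 were higher in adult cells. Hspa1a, the inducible HSP70 chaperone, was 10.85, 11.07 and 10.17 in NB_FACS, 7.17, 7.24 and 7.34 in NB_Control, and 14.05 and 14.28 in A_FACS, a fall of 3.45 (adjusted p 7.74e-06) and an adult difference of 3.47 (adjusted p 4.59e-05).

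**Figure D5:**
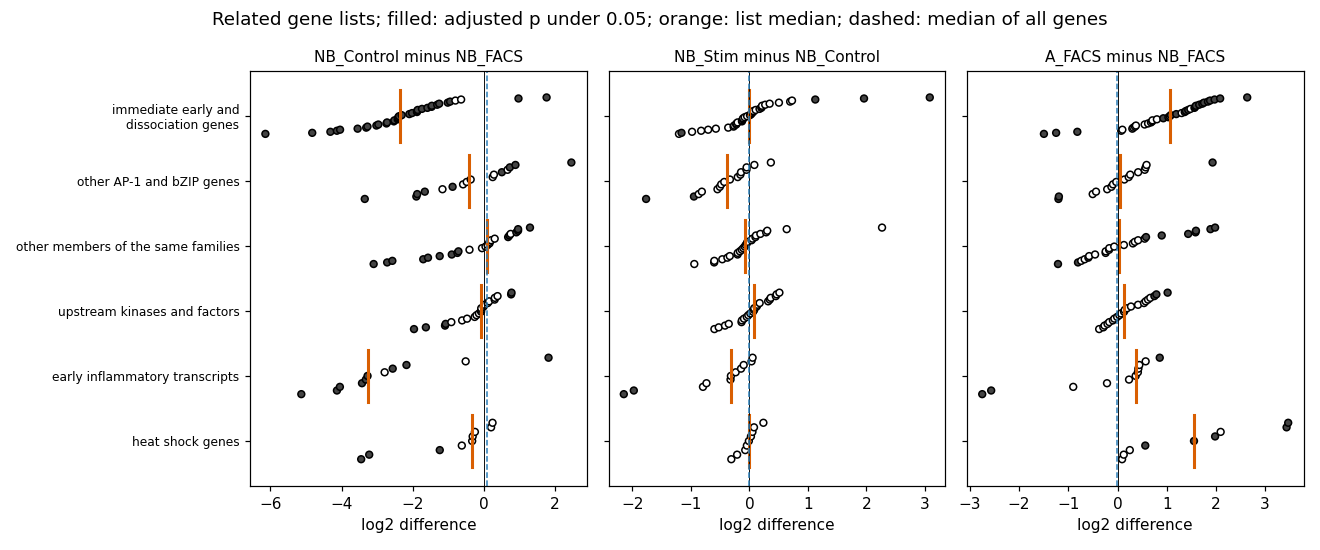
Log2 differences of the members and of 5 related gene lists (rows, 1 point per gene, filled where the adjusted p was under 0.05) in 3 comparisons, with the median of each list in orange and that of all genes as a dashed line. The members and the early inflammatory transcripts lie left of the dashed line in NB_Control minus NB_FACS, while the upstream kinases centre on it.

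Markers of microglia and of several other cells also differed between the groups. Over all genes, 13.9% were called lower and 15.8% higher in NB_Control, and 15.1% and 16% in NB_Stim, each against NB_FACS. In A_FACS against NB_FACS these shares were 12.9% and 9.75%. Of the 11 microglial genes, 6 were lower in NB_Control (median -1.42, down to -6.44 for P2ry12), 3 were lower in NB_Stim and 6 were higher in A_FACS (median 1.09), each against NB_FACS, and 3 were higher in NB_Stim than in NB_Control. Their summed intensity was 464500 to 480500 in A_FACS, 345300 to 353900 in NB_FACS, 213300 to 266200 in NB_Control and 325200 to 350500 in NB_Stim. Of 9 endothelial genes, 6 were called lower in NB_Control and 3 higher in A_FACS, each against NB_FACS, and their summed intensity was 6141 to 8826 on NB_FACS arrays, 8594 to 18080 on A_FACS, 1194 to 1272 on NB_Control and 2148 to 2569 on NB_Stim. Against NB_FACS 1 endothelial gene was called higher and 5 lower in NB_Stim. Between the cultured groups 1 of the 9 was called higher in NB_Stim and 0 lower, against 1.4% and 2% of all genes. By sign alone 5 were higher and 4 lower. The largest difference was that of Flt1, from a mean of 7.61 in NB_Control to 10.39 in NB_Stim. Tek and Slco1a4 were not well above background on any cultured array. Of 6 erythroid genes 4 were lower in NB_Control and in A_FACS, and their sum was 148800 to 205000 in NB_FACS, 8566 to 25360 in A_FACS, 190 to 212 in NB_Control and 177 to 283 in NB_Stim. Of these genes, Hbb-bt and Alas2 were not well above background on any NB_Control array and passed the filter through the sorted groups. Their falls in NB_Control have no measured size. Of 8 border macrophage genes 2 rose in NB_Control (Ms4a7 by 6.67 and Pf4 by 4.71) and 3 fell, 2 rose and 4 fell in NB_Stim, and 6 were lower in A_FACS, so that the list moved in both directions in culture. Their sum was 425 to 952 in A_FACS, 11790 to 14630 in NB_FACS, 46470 to 87890 in NB_Control and 19480 to 32870 in NB_Stim. Lyve1 was not well above background on any NB_Control array, nor was Cd163 on any NB_Stim array. Their differences in those groups have no measured size. Fibroblast genes were higher in culture (4 of 6 called), with sums of 12250 to 16080 in NB_Control, 7103 to 15620 in NB_Stim, 772 to 1046 in NB_FACS and 119 to 357 in A_FACS. Over the same groups the sum of the 36 members was 925900 to 1124000 in A_FACS, 351400 to 486400 in NB_FACS, 81550 to 102300 in NB_Control and 83620 to 95410 in NB_Stim. Of 5 neutrophil genes 0 were called in NB_Control, NB_Stim or A_FACS against NB_FACS, and of 6 neuronal genes 1 was lower in each. Of 5 astrocyte genes 1 was higher in NB_Control, 2 were higher in NB_Stim and 3 were lower in A_FACS. Of 3 oligodendrocyte lineage genes 1 was higher in NB_Control, 3 were higher in NB_Stim and 0 were called in A_FACS. The part of all these cells in the differences of the members was not tested.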

How the data were processed

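RNA from 11 samples was labelled with a low-input kit and hybridised to Agilent mouse arrays. The authors deposited scanner files with a background-subtracted intensity per spot (Feature Extraction 11.5.1.1), and an intensity table that did not differ from them. The authors quantile normalised before their own analysis, but the deposited intensity values are not normalised between arrays. No spot was saturated.

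Groups and replicate numbers came from the sample titles. Here log2 intensities were averaged over the spots of a probe that were not flagged as outliers. Probes without such a spot on every array, 138 in all, were dropped. The values were quantile normalised and limited to the 44727 of 60037 probes that 1 group or more had well above background throughout. Of these, 28027 had a symbol through RefSeq accessions (GRCm38.p6, names only) and were averaged to 19555 genes. Each gene was fitted in limma 3.58.1 (R 4.3.3) with 1 mean per group, all 6 pairwise comparisons were tested, and p-values were adjusted by Benjamini-Hochberg over all genes. The samples are not stated to be separate cultures, so p-values measure the spread between these samples, which may be technical. The fit was tested on simulated data. Motifs were searched with Python 3.11.15 and figures drawn with matplotlib 3.10.9.

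The members and lists were chosen with earlier results of these data known. Every matched member is named, per-array values are given for members among the largest differences, and from related lists at most 4 genes per comparison are named, by size of the difference. A value of 1 related gene is not reported here. In addition, Ptgs2 as the rise of its list and the per-array values of Zfp36l1, Nr4a1, Myc, Gadd45g and Hspa1a were chosen after their values were seen. Correlations of deviations were 0.112 to 0.489 between same-numbered newborn arrays, and -0.069 to 0.168 between same-numbered adult and newborn arrays. Arrays with different numbers were not compared in this way. Replicate 3 was the only slide 2 array of each newborn group, and both adult arrays were on slide 1. A difference between slides could give the same pattern, so these values cannot show pairing by number, which the labels do not state. The number of arrays limits the precision. Alternatives covered scaling, background correction, filters, probe choice, slide and replicate blocks, Tukey's adjusted test and the omission of each array. Averaging cultured replicates 1 and 2, the most similar pairs, was added after seeing the data.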

Additional observations from a re-analysis of the deposited data

How the results depend on the processing

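Counts of calls, members that were called or differed by 0.5 or more, and called genes of the other lists were recomputed under up to 22 alternative settings; genes outside these were not. The 32 falls and the rise of Fosl2 in NB_Control held their direction in every setting that gave a value, and Klf2 and Sgk1 were the called members that lost a call there. Sgk1 reversed to -0.40 with its brightest probe and with probes well above background on all arrays, and was 0.04 after normexp background correction. Under the same probe choices its difference of A_FACS from NB_Stim reversed to 0.49, and Dusp10, of the related families, reversed to 0.13 in NB_Stim minus NB_FACS with its brightest probe. Leaving out single arrays gave 33 to 35 members called for NB_Control minus NB_FACS, 33 to 34 for NB_Stim minus NB_FACS, 3 to 6 for NB_Stim minus NB_Control, 10 to 26 for A_FACS minus NB_FACS, and 33 to 35 for A_FACS minus NB_Control and for A_FACS minus NB_Stim. For A_FACS minus NB_FACS the 21 calls became 8 with Tukey's adjusted test and 10 without A_FACS replicate 1. For NB_Stim minus NB_Control the 4 calls became 9 with the replicate block, 9 with the slide as a block and 2 with cultured replicates 1 and 2 averaged; the causes were not tested. In that comparison 8 of the 12 members followed changed their call in some setting, as did 20 of 30 in A_FACS minus NB_FACS, 4 of 35 in A_FACS minus NB_Control and 5 of 36 in A_FACS minus NB_Stim.

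Over all genes, the 666 calls of NB_Stim minus NB_Control became 1009 with normexp, 1476 with the slide as a block, 1046 with the replicate block, 183 with Tukey's adjusted test, 118 with replicates averaged, 332 and 330 without NB_Control replicates 1 and 2, and 296 and 309 without NB_Stim replicates 1 and 2. The 4434 of A_FACS minus NB_FACS became 2923 with only these groups in the fit, 2014 with Tukey's adjusted test and 2284 without A_FACS replicate 1. Tukey's adjusted test gave 3547 for NB_Control minus NB_FACS (5811), 3620 for NB_Stim minus NB_FACS (6082), 4881 for A_FACS minus NB_Control (7982) and 4654 for A_FACS minus NB_Stim (7869), and the last 2 were 5050 and 4687 without A_FACS replicate 1. Where leaving out an array left 1 adult sample, that sample was assumed to vary like the other groups. Genes near background, such as Egr3 in culture, have only a bound.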
